A study of Mus musculus with 12 samples.

Results

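The genes described here are 9 genes linked to MHC class I antigen presentation and to interferon, taken by symbol from a table of 24421 genes. They are B2m, H2-D1, H2-K1, Tap1 and Tapbp, which build or load the class I complex, the interferon-induced transmembrane genes Ifitm1, Ifitm2 and Ifitm3, and the transcription factor gene Irf1. All 9 were among the 11378 genes tested, which had a mean over the libraries of at least 1 RPKM (reads per kilobase of exon, scaled to library size). The levels were read in mouse embryonic stem (mES) cells of strain B6, a line made from C57BL/6J blastocysts and grown in 2i and LIF, in which both the control and the treated cells carried a dTAG degron knocked into Brg1 (Smarca4), the gene of the catalytic subunit of the mSWI/SNF chromatin remodeller. The degron lets the small molecule dTAG13 send the BRG1 protein to the proteasome. Cells received 0.3, 1, 3, 10 or 100 nM dTAG13 for 24 h, while the labels enter no treatment for the control libraries and the study's figure legends name DMSO, the solvent, for its 0 nM expression data. Each of the 6 conditions had 2 RNA-seq libraries, 12 in all, from knock-in cells picked as colonies of single cells, with no number of clones stated. The labels do not say whether replicates were separate cultures, while the study's figure legends describe its expression data as from independent experiments. The p-values measure the spread between these libraries. The comparisons ask how each gene's RNA level followed the dose.

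A class I molecule is a heavy chain, such as H2-K or H2-D, bound to the light chain beta-2-microglobulin and to a short peptide. Peptides made by the proteasome are pumped into the endoplasmic reticulum by the TAP transporter, and tapasin, the product of Tapbp, bridges TAP to the empty heavy chain while a peptide is loaded. Interferons raise the expression of most of these genes through STAT factors and IRF proteins such as IRF1. IFITM proteins sit in cell membranes and hinder the entry of enveloped viruses, and Ifitm1 and Ifitm3 are also known as genes of early embryonic and germ cells. Embryonic stem cells are known for low class I levels and a weak interferon response.

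Library totals ran from 4663484 to 6375582 counts with a median of 5956669.5. The RNA of Smarca4 itself lay between 63.9 RPKM in control and 71.3 RPKM at 100 nM as condition means. It did not fall at any dose and was 0.16 higher on the log2 scale at 100 nM (SE 0.055, adjusted p = 0.0389 by edgeR's quasi-likelihood (QL) test, corrected over all tested genes after Benjamini and Hochberg). Since dTAG13 acts on the protein, this RNA does not check the dose labels. All 6 mES cell markers were above 1 RPKM, with a summed level between 1123 and 1299 RPKM in each of the 12 libraries. At 100 nM, Nanog (0.52 on the log2 scale, adjusted p = 1.788e-08 by the edgeR QL test) and Klf4 (0.28, 0.001632) were higher. Pou5f1 (-0.17, 0.03013) and Esrrb (-0.17, 0.04329) were lower. Pou5f1 lost its call in 7 of 16 alternatives and Esrrb in 8. For both these included the likelihood ratio test, DESeq2, upper quartile scaling and leaving out control replicate 2 or 100 nM replicate 2. Nanog was also called higher at 1, 3 and 10 nM, though at 1 nM not when any 1 of the 4 libraries was left out (adjusted p from 0.1543 to 0.2418). Summed levels of 8 fibroblast markers stayed between 0.707 and 2.90 RPKM, and those of 10 haematopoietic markers between 5.47 and 9.84 RPKM. None of these markers was at 0 counts in all 12 libraries. In bulk RNA, fewer cells that express a gene and less RNA per cell cannot be told apart. The labels number the control, 1, 10 and 100 nM libraries in 1 run of S numbers and the 0.3 and 3 nM libraries in another, so the contrasts of 0.3 or 3 nM with control cross that boundary while those of 1, 10 and 100 nM do not. What the runs stand for is not stated.

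Promoter sequences are shown for the genes on which the results turn, taken from RefSeq on build GRCm38.p6, the build of the files' mm10 coordinates. Each window spans 250 bases before and 50 after an annotated start, and all 9 genes had at least 1 window, 11 in all. Motifs were searched as plain letters on both strands. They were GAAANNGAA, the core bound by IRF proteins, TTCNNNGAA, the gamma-activated site of interferon-gamma signalling, GGGNNTTCC, a kappaB core, CCAAT, bound by NF-Y, and TGACG, the core of a cyclic AMP response element. Of 32851 windows of all genes, 8.56% held the IRF core, 8.30% the gamma-activated site, 5.82% the kappaB core, 37.4% CCAAT and 20.8% TGACG. The IFITM windows come first, since these 3 genes differed most from each other. They lie at chr7:141010695-141010994 (minus strand), chr7:140955912-140956211 (minus strand) and chr7:140967826-140968125 (plus strand). Each is given 5′ to 3′ along its gene, with matches in capitals.
Ifitm3: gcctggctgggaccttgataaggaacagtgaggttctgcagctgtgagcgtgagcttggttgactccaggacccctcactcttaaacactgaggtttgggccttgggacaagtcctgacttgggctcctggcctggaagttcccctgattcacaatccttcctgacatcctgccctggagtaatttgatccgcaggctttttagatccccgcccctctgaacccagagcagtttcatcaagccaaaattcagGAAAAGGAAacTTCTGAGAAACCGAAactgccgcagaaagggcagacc
Ifitm2: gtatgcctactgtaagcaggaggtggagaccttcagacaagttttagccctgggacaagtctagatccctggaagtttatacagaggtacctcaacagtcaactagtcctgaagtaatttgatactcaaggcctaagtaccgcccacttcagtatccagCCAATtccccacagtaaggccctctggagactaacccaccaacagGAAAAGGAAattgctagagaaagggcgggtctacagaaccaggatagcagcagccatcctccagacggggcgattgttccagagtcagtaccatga
Ifitm1: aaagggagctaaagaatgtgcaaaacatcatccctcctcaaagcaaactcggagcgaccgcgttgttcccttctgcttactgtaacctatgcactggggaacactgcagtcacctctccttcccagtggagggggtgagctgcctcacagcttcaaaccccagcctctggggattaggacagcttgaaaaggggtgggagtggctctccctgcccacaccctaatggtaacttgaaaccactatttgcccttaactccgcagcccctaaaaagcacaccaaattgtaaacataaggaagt

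The Ifitm3 window held the IRF core 2 and 19 bases after the start, with a gamma-activated site at 13 bases that shares its last letters with the second IRF core. Ifitm2 held an IRF core 46 bases before its start, spelled GAAAAGGAA, the same letters as the nearer match of Ifitm3. The Ifitm1 window held none of the 5 motifs, and its RefSeq start lies inside the gene span that the counts table uses, so the window does not cover the start in that table. A match here is a description of letters and not a measured binding site.

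For the class I heavy chains and the light chain, the stretches from the outermost matches with 5 bases on either side are shown. They carry matches to part of the motif set known from class I promoters. They lie at chr17:34000330-34000463 (minus strand), chr17:35262918-35263050 (plus strand) and chr2:122147543-122147736 (plus strand).
H2-K1: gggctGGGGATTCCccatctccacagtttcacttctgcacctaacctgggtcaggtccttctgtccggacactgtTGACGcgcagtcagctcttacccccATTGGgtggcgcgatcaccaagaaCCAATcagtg
H2-D1: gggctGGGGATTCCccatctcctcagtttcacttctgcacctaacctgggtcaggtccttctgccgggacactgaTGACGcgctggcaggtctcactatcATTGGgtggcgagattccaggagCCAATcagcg
B2m: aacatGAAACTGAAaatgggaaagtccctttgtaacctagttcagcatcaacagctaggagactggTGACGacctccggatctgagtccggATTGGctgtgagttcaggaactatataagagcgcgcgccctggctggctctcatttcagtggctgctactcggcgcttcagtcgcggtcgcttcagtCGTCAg

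H2-K1 and H2-D1 carried the same order of matches, a kappaB core, the TGACG core, then CCAAT once on the minus and once on the plus strand, and 89 of the 100 bases from the kappaB core onwards were identical. B2m had an IRF core 139 bases before its start and no match to the kappaB pattern as spelled here. Sites of other lengths or spellings were not searched in B2m or in the heavy chain stretches. The matches therefore do not show that these promoters differ in kappaB or IRF sites. The next stretches belong to the genes whose RNA fell and that lie outside the IFITM cluster, Irf1 at chr11:53769919-53769960 and Tapbp at chr17:33919228-33919322, both on the plus strand.
Irf1: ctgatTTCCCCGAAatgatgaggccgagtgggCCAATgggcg
Tapbp: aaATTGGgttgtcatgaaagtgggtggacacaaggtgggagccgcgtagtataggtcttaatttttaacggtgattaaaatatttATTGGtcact

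Irf1 held a gamma-activated site 90 bases before its start, spelled TTCCCCGAA, and CCAAT 63 bases before it. Tapbp held CCAAT on the minus strand at 248 and 165 bases before its start and none of the other motifs. Both matches lie inside the span of the neighbouring gene Zbtb22 (33916176 to 33919325). Tap1 held CCAAT 222 and TGACG 86 bases before its start.

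At 100 nM, 4 of the 9 genes were lower than in control (Ifitm3, Ifitm1, Tapbp and Irf1) and 0 were higher, by the edgeR QL test at an adjusted p under 0.05 over all 11378 genes. Over all genes tested, this test called 13.3% lower and 10.1% higher. At an unadjusted p under 0.05, 5 of the 9 were lower and 0 higher, beside 2115 and 1814 of all 11378 genes. DESeq2 called 4 lower and 0 higher, beside 9.25% and 6.55% of all genes. With scaling factors taken over all genes in the table, an alternative chosen after seeing the data, the edgeR background was 19.1% lower and 7.05% higher. The 4 lower genes were 44.4% of the 9, and all 4 also passed a 1.5-fold limit, which 6.83% of all genes passed downward and 4.37% upward. The median log2 change of the 9 genes was -0.53 beside 0 over all genes.

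**Figure D1:**
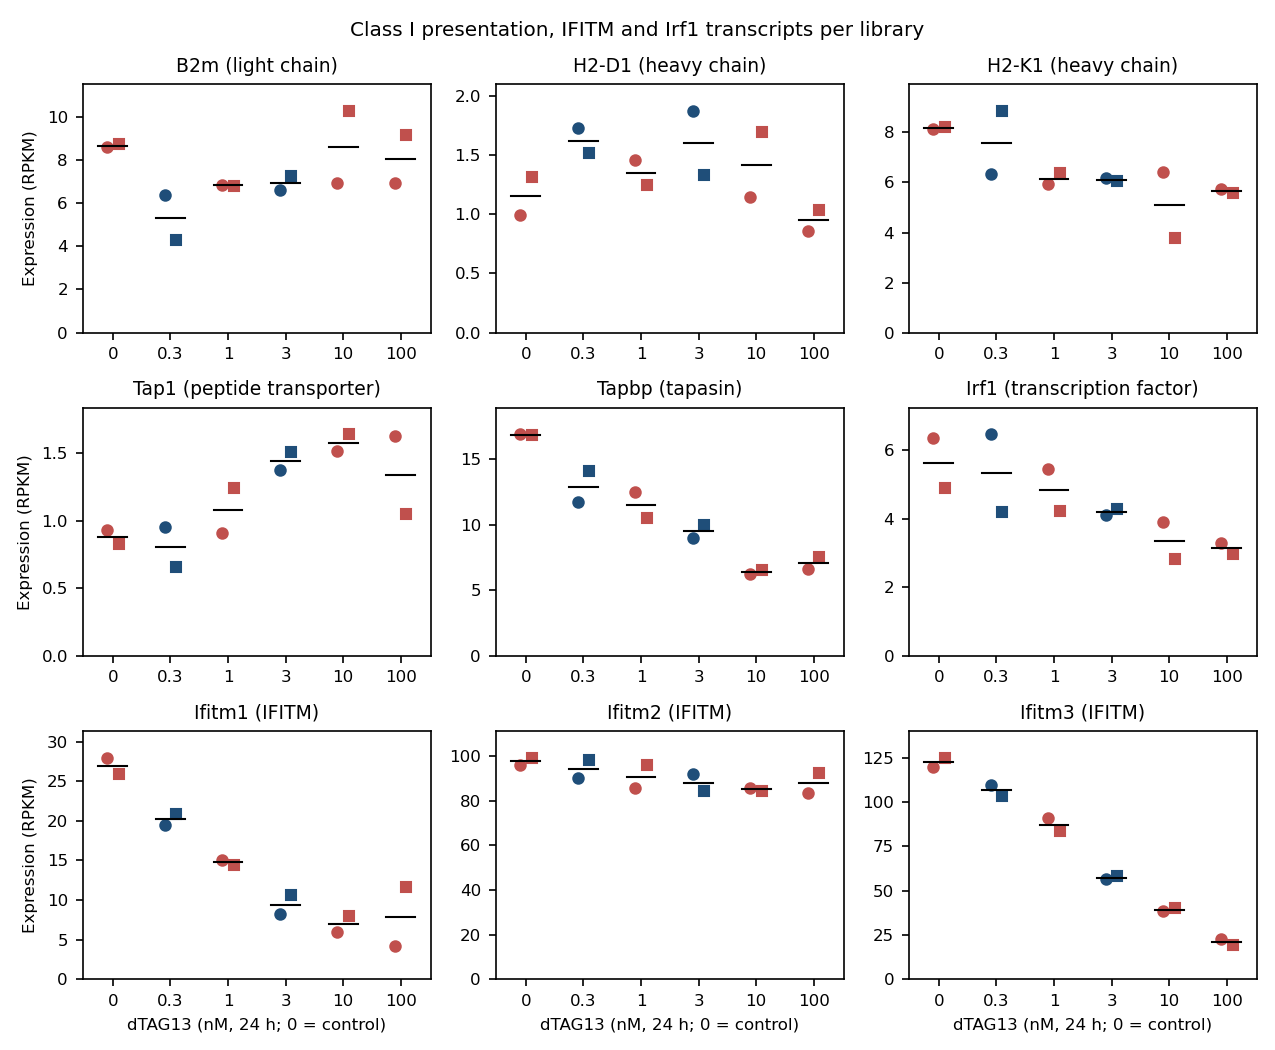
Expression of the 9 genes in RPKM (vertical axes from 0, one scale per gene) against dTAG13 dose in nM (0 is control). Circles are replicate 1, squares replicate 2 and bars the mean of both. Red and blue mark the libraries of the 2 runs of S numbers. Ifitm3 falls from 122.5 RPKM in control to 21.0 RPKM at 100 nM while Ifitm2 stays between 83.4 and 99.4 RPKM.

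Ifitm3, on chromosome 7 at 141009590 to 141010744 (mm10, minus strand), showed the deepest fall. Its level was 119.8 and 125.3 RPKM in the control libraries, 109.7 and 103.7 RPKM at 0.3 nM, 90.9 and 83.5 RPKM at 1 nM, 56.4 and 58.2 RPKM at 3 nM, 38.3 and 40.3 RPKM at 10 nM, and 22.7 and 19.2 RPKM at 100 nM. The 6 conditions did not overlap, and each higher dose lay below the one before. The level at 100 nM was 17.1% of the control mean, 5.84-fold lower (log2 change -2.55, SE 0.12, adjusted p = 1.178e-14 by the edgeR QL test). The log2 change was -0.20 (SE 0.093) at 0.3 nM, where it did not pass (adjusted p = 0.6349), -0.49 (SE 0.094) at 1 nM, -1.10 (SE 0.10) at 3 nM and -1.64 (SE 0.11) at 10 nM. The call at 1 nM had an adjusted p of 0.00393, and this p was 0.0657 without control replicate 2 and 0.1185 without 1 nM replicate 2.

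Ifitm1, on chromosome 7 at 140967429 to 140969827 (plus strand), fell as well. It stood at 28.0 and 26.0 RPKM in control, 19.5 and 20.9 RPKM at 0.3 nM, 15.02 and 14.5 RPKM at 1 nM, 8.21 and 10.6 RPKM at 3 nM, 5.90 and 8.02 RPKM at 10 nM, and 4.14 and 11.7 RPKM at 100 nM. Every treated library lay below both control libraries, and the 100 nM libraries spanned the ranges at 3 and 10 nM. The 100 nM replicates rest on 21 and 60 counts, the widest split of this gene. The log2 change at 100 nM was -1.76 (SE 0.25, adjusted p = 7.585e-06 by the edgeR QL test), a 3.39-fold fall. Leaving out 100 nM replicate 1 gave -1.21 and leaving out replicate 2 gave -2.70, and the gene passed both times (adjusted p = 0.0006722 and 6.284e-07). At 1 nM the change of -0.87 passed with an adjusted p of 0.04104, but leaving out any of the 4 libraries in turn ended the call (adjusted p from 0.1467 to 0.2676).

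Ifitm2, on chromosome 7 at 140954839 to 140955961 (minus strand), lies in the same cluster, 11.5 kb from Ifitm1, which is 39.8 kb from Ifitm3. Its level was 95.9 and 99.4 RPKM in control, 90.0 and 98.3 RPKM at 0.3 nM, 85.9 and 95.8 RPKM at 1 nM, 91.9 and 84.2 RPKM at 3 nM, 85.7 and 84.6 RPKM at 10 nM, and 83.4 and 92.3 RPKM at 100 nM. Each dose overlapped the next in the order of levels. All libraries from 1 nM upward still lay below both controls, at 1 nM narrowly (95.83 against 95.85 RPKM). The log2 change at 100 nM was -0.15 with a 95% interval, from its SE, of -0.34 to 0.04 (adjusted p = 0.2816 by the edgeR QL test). At 10 nM the log2 change was -0.20 (SE 0.097, adjusted p = 0.1812 by the same test). Ifitm2 was not called at any dose, and its 100 nM interval leaves room for a fall of up to 0.34 on the log2 scale.

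**Figure D2:**
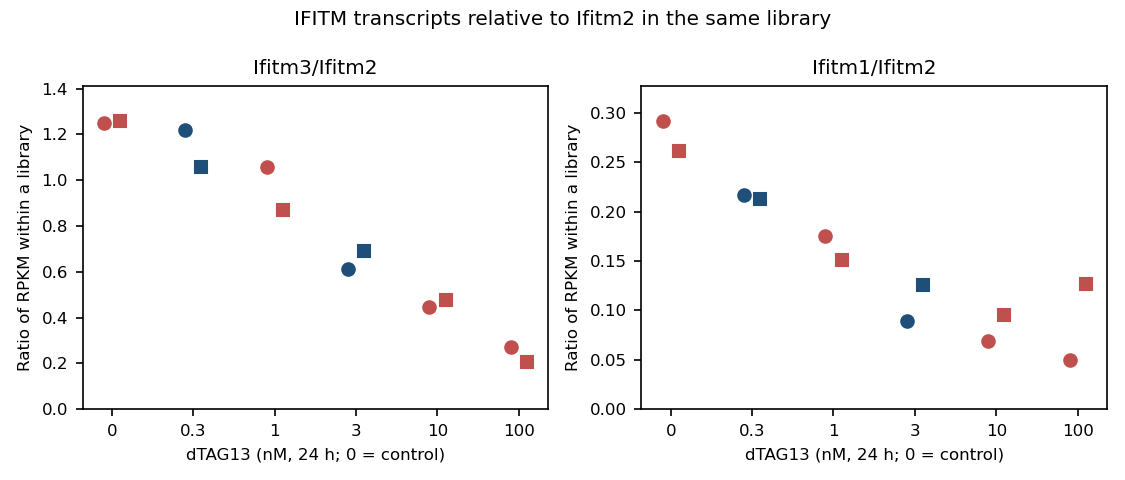
Ratio of Ifitm3 (left) and Ifitm1 (right) to Ifitm2, each the ratio of RPKM values within 1 library (vertical axes from 0), against dTAG13 dose in nM (0 is control). Circles are replicate 1 and squares replicate 2, with red and blue for the 2 runs of S numbers. The Ifitm3 ratio goes from 1.25 and 1.26 in control to 0.273 and 0.208 at 100 nM.

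A ratio within a library does not depend on how libraries were scaled. Ifitm3 RNA stood at 1.25 and 1.26 times the Ifitm2 level in the control libraries, 1.22 and 1.06 times at 0.3 nM, 1.06 and 0.871 times at 1 nM, 0.613 and 0.691 times at 3 nM, 0.447 and 0.476 times at 10 nM, and 0.273 and 0.208 times at 100 nM. The gene pair therefore changed order per length, with Ifitm3 above Ifitm2 in control and below it from 3 nM on. The ratio of Ifitm1 to Ifitm2 was 0.292 and 0.261 in control and 0.0496 and 0.127 at 100 nM. No test was run on these ratios. Reads that map to several places were left out by the counting, so exons that the IFITM genes share may be undercounted.

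Tapbp, on chromosome 17 at 33919478 to 33929290 (plus strand), had the largest change of the 5 presentation genes among the 9. The control libraries held 16.9 and 16.9 RPKM, those at 0.3 nM 11.7 and 14.1 RPKM, at 1 nM 12.5 and 10.5 RPKM, at 3 nM 9.004 and 10.02 RPKM, at 10 nM 6.25 and 6.53 RPKM, and at 100 nM 6.62 and 7.55 RPKM. No treated library reached the control level. The lowest mean was at 10 nM, 37.8% of control, and that at 100 nM was 41.9% of control. These 2 doses did not differ by the test (log2 difference 0.15, SE 0.15, adjusted p = 0.7818 by the edgeR QL test). Against control the log2 change was -0.55 (SE 0.12, adjusted p = 0.01325) at 1 nM, -0.82 (SE 0.13) at 3 nM, -1.40 (SE 0.13) at 10 nM and -1.25 (SE 0.13, adjusted p = 5.703e-08) at 100 nM. The call at 1 nM was lost without control replicate 1 (adjusted p = 0.09788), control replicate 2 (0.09199) or 1 nM replicate 2 (0.2514).

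The other presentation genes did not pass at 100 nM. H2-K1, a heavy chain gene on chromosome 17 at 33996012 to 34000333, had 8.14 and 8.21 RPKM in control, 6.32 and 8.85 RPKM at 0.3 nM, 5.93 and 6.37 RPKM at 1 nM, 6.17 and 6.05 RPKM at 3 nM, 6.43 and 3.78 RPKM at 10 nM, and 5.73 and 5.56 RPKM at 100 nM. All libraries from 1 nM upward lay below both controls. The log2 change was -0.67 (SE 0.23, adjusted p = 0.04113 by the edgeR QL test) at 10 nM and -0.53 (SE 0.22, adjusted p = 0.08777) at 100 nM. The 10 nM call ended without 10 nM replicate 2 (log2 change -0.35, adjusted p = 0.4109), without control replicate 1 (0.1223) and without control replicate 2 (0.1422). At 100 nM the gene passed with no filter on low values (adjusted p = 0.03308) and with factors over all genes (0.04274).

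B2m, the light chain gene on chromosome 2 at 122147687 to 122153082, was at 8.61 and 8.72 RPKM in control, 6.37 and 4.30 RPKM at 0.3 nM, 6.86 and 6.79 RPKM at 1 nM, 6.62 and 7.25 RPKM at 3 nM, 6.94 and 10.3 RPKM at 10 nM, and 6.95 and 9.15 RPKM at 100 nM. The control range lay inside the ranges at 10 and 100 nM and above those of the 3 lower doses. The change at 100 nM was -0.11 on the log2 scale, with a 95% interval of -0.63 to 0.42, and its sign turned to 0.077 without 100 nM replicate 1. The gene overlaps Patl2 on the other strand, with 0 exon bases shared.

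H2-D1, the other heavy chain gene, on chromosome 17 at 35263094 to 35267497, was counted low, with 9 to 17 counts per library. Its level was 0.989 and 1.31 RPKM in control, 1.73 and 1.52 RPKM at 0.3 nM, 1.45 and 1.25 RPKM at 1 nM, 1.87 and 1.33 RPKM at 3 nM, 1.14 and 1.69 RPKM at 10 nM, and 0.858 and 1.04 RPKM at 100 nM. Neighbours in the order of its levels all overlapped. In the table's annotation 1060 of its 1736 exon bases (61.1%) are shared with H2-L, which had 0 counts in every library, so that reads on shared bases are not in its count and its level is uncertain. The 95% interval of its log2 change at 100 nM ran from -1.21 to 0.65.

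Tap1, which encodes a subunit of the peptide transporter, on chromosome 17 at 34187556 to 34197225, was the only gene of the 9 with a positive estimate at 100 nM. It had 0.931 and 0.827 RPKM in control, 0.957 and 0.654 RPKM at 0.3 nM, 0.913 and 1.24 RPKM at 1 nM, 1.38 and 1.51 RPKM at 3 nM, 1.51 and 1.64 RPKM at 10 nM, and 1.63 and 1.05 RPKM at 100 nM. All libraries at 3, 10 and 100 nM lay above both controls. The log2 difference from control was 0.84 (SE 0.36, adjusted p = 0.1224 by the edgeR QL test) at 10 nM and 0.60 (95% interval -0.13 to 1.34, adjusted p = 0.2654) at 100 nM. With 11 to 29 counts per library, no difference and too few counts to detect one could not be told apart.

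Irf1, on chromosome 11 at 53770014 to 53778374, had 6.34 and 4.89 RPKM in control, 6.46 and 4.18 RPKM at 0.3 nM, 5.46 and 4.21 RPKM at 1 nM, 4.11 and 4.29 RPKM at 3 nM, 3.89 and 2.83 RPKM at 10 nM, and 3.30 and 2.97 RPKM at 100 nM. The 3, 10 and 100 nM libraries lay below both controls, while those at 0.3 and 1 nM overlapped them. The log2 change was -0.73 (SE 0.21, adjusted p = 0.01683 by the edgeR QL test) at 10 nM and -0.84 (SE 0.21, adjusted p = 0.005178) at 100 nM, where the level was 55.8% of control. The 100 nM call ended without control replicate 1 (log2 change -0.64, adjusted p = 0.09727) and without 100 nM replicate 2 (-0.76, 0.0651). The 10 nM call ended without control replicate 1 (0.1956) and without 10 nM replicate 2 (0.1871).

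Over the 5 doses the count of genes called lower was 0, 3, 3, 5 and 4, and 0 were called higher at any dose. All these comparisons share the same 2 control libraries. At 0.3 nM, 0 genes passed the edgeR QL test in either direction, beside a background of 0.0703% lower and 0% higher, and DESeq2 called 0. At an unadjusted p under 0.05, 3 were lower (Tapbp, B2m and Ifitm3). Of all 11378 genes, 498 were lower and 361 higher at that unadjusted threshold. At 1 nM the 3 genes were Tapbp, Ifitm1 and Ifitm3, where 1.52% of all genes were called lower and 0.773% higher. Leaving out control replicate 2 or 1 nM replicate 2 brought this count to 0, and leaving out control replicate 1 left Ifitm3 alone. The same genes passed at 3 nM (background 5.25% lower, 4.15% higher) in every alternative run. At 10 nM H2-K1 and Irf1 joined them (background 10.1% lower, 7.87% higher), and both were lost again without control replicate 1 and without 10 nM replicate 2. The only unadjusted p under 0.05 for a higher level against control was that of Tap1 at 10 nM (0.03038).

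**Figure D3:**
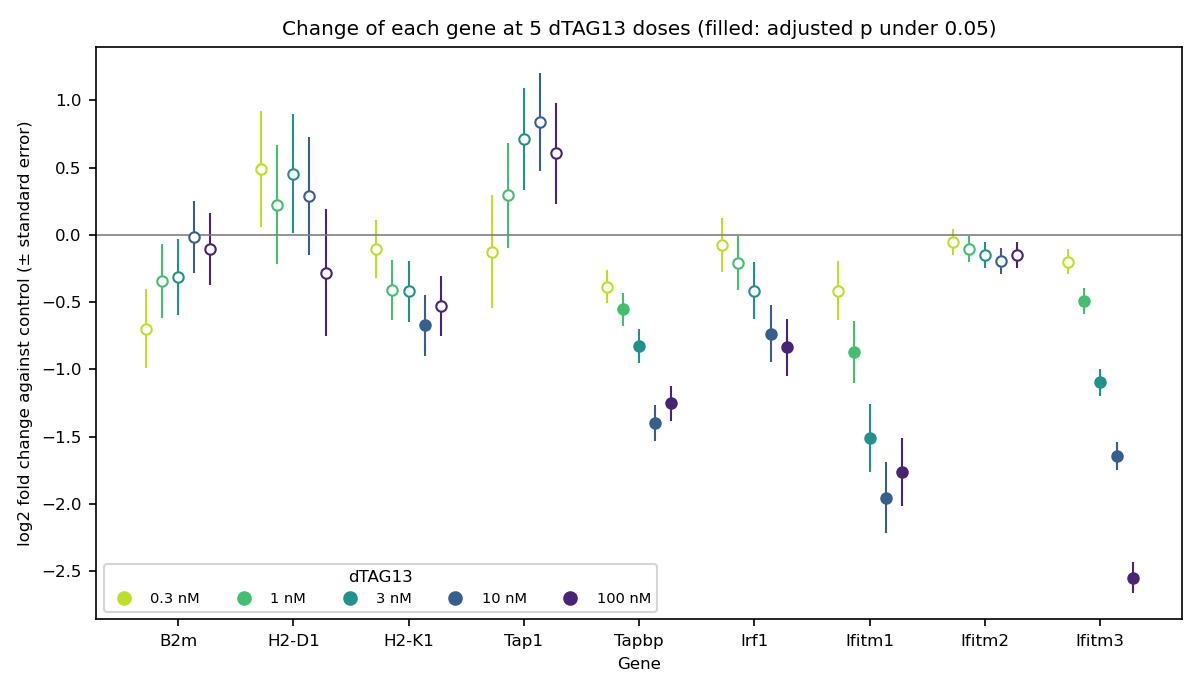
Log2 fold change against control (vertical axis) of the 9 genes at 0.3, 1, 3, 10 and 100 nM dTAG13 (light to dark), with bars of 1 standard error from edgeR. Filled points passed an adjusted p under 0.05. Ifitm3 reaches -2.55 at 100 nM, Ifitm1 and Tapbp have their lowest points at 10 nM (-1.95 and -1.40), and Ifitm2 stays between -0.20 and -0.05.

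Steps between doses compared 2 treated conditions of the same run of S numbers, so control levels did not enter the differences. They were contrasts in the same fit of all 12 libraries, which set the spread and the scaling. From 1 to 10 nM, Ifitm3 (log2 difference -1.15, adjusted p = 1.266e-07 by the edgeR QL test), Ifitm1 (-1.08, 0.02079) and Tapbp (-0.85, 0.0002505) were lower, 3 of the 9 genes, where 3.72% of all genes were called lower and 2.55% higher. From 0.3 to 3 nM, Ifitm3 (-0.90, 3.971e-06) and Ifitm1 (-1.09, 0.01309) were lower, with a background of 2.88% lower and 2.43% higher, and Tapbp missed the threshold (-0.44, 0.0536). From 10 to 100 nM, Ifitm3 was the 1 gene of the 9 that fell further (-0.90, adjusted p = 0.0001438), where 1.76% of all genes were called lower and 0.615% higher. Ifitm1 did not pass in this last step (0.19, SE 0.32, adjusted p = 0.8827).

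Across the 12 libraries, Pearson's r of log2(RPKM + 0.1) was 0.93 between Tapbp and Ifitm1, 0.89 between Tapbp and Ifitm3, 0.83 between Irf1 and Ifitm3 and 0.82 between Ifitm1 and Ifitm3. It was 0.57 between Ifitm2 and Ifitm3, and -0.85 between Tap1 and Ifitm1. These values describe 12 libraries that share their dose series and their scaling. Of all genes tested, those with the pattern most like Ifitm3 were Laptm5 (r = 0.997, log2 change at 100 nM -3.66), Tuba4a (0.995, -1.55) and Mcc (0.992, -2.41). Among the nearest to Ifitm1 were Tfap4 (0.960) and Pank2 (0.956). Nearest to Tapbp were Dhrs4 (0.970), Unc5b (0.969) and Ppp1r10 (0.966), and nearest to Irf1 were Pdpk1 (0.933), Gstm2 (0.928) and Myh10 (0.920). For H2-K1 they were Hint1 (0.962), Csrp2 (0.945) and Rapgef1 (0.907), for Ifitm2 Pde9a (0.895), Ewsr1 (0.881) and Gipc1 (0.874), for B2m Slc30a7 (0.926), Lgr4 (0.900) and Fam126b (0.886), for H2-D1 Eapp (0.919), Ube2s (0.893) and Cdc27 (0.887), and for Tap1 Icmt (0.943), Tmppe (0.901) and Tusc3 (0.892).

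The genes beside the 9 on the chromosome did not share one direction. Tapbp starts 153 bases past Zbtb22, whose log2 change at 100 nM was -0.14 (adjusted p = 0.6186 by the edgeR QL test), and ends 604 bases before Rgl2, which rose by 0.50 (SE 0.16, adjusted p = 0.01936). On the far side of Ifitm3, 50530 bases away, B4galnt4 fell by 0.69 (SE 0.14, adjusted p = 0.0006035). Athl1, next to Ifitm2, had 0.33 (adjusted p = 0.2024). Sord, 81757 bases from B2m, rose (0.99, SE 0.36, adjusted p = 0.04512 by the same test). So did Rad50, 62695 bases from Irf1 (0.21, SE 0.076, 0.04458). Whether these calls of Sord and Rad50 hold without single libraries was not tested. The remaining nearest tested genes, Spg11, Ddx39b, H2-Q4, Vps52, Ring1, Brd2, Notch4 and Slc22a5, did not pass, with Ring1 beside H2-K1 at 0.81 (adjusted p = 0.0775).

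To place the 9 genes in their pathways, 136 further genes of class I presentation and interferon biology were listed, of which 57 were tested. At 100 nM, 12 were lower (21.1%) and 4 higher (7.02%), beside 13.3% and 10.1% of all genes, and 41 did not pass. The median log2 change of the 57 was -0.02. At 0.3 nM, 0 passed the edgeR QL test in either direction, and DESeq2 called 0. At an unadjusted p under 0.05, 3 were lower and 0 higher, beside 498 and 361 of all 11378 genes. The dose of 1 nM gave 1 lower and 1 higher (1.75% each, beside 1.52% lower and 0.773% higher over all genes), and DESeq2 called 0 in either direction. At 3 nM, 5 were lower (8.77%, beside 5.25%) and 3 higher (5.26%, beside 4.15%), with 2 and 1 by DESeq2. At 10 nM, 9 were lower (15.8%, beside 10.1%) and 4 higher (7.02%, beside 7.87%), with 5 and 3 by DESeq2.

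**Figure D4:**
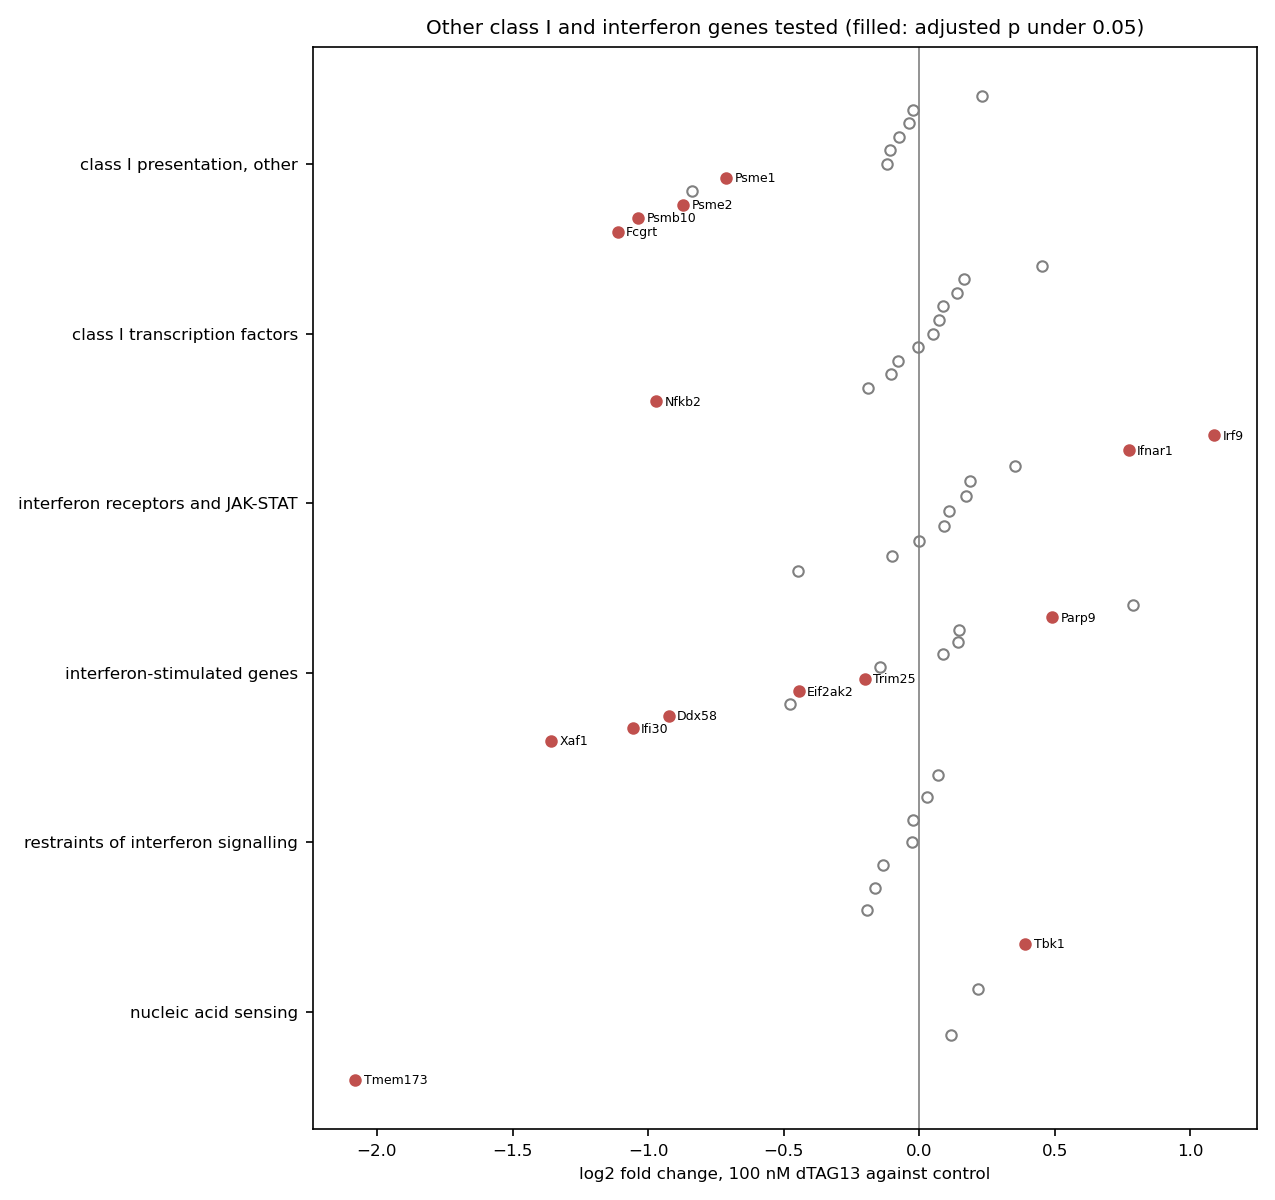
Log2 fold change at 100 nM dTAG13 against control (horizontal axis) for 55 of the 57 other class I and interferon genes tested, 1 point per gene, in rows by list. Filled named points passed an adjusted p under 0.05. The 4 filled points to the right of 0 are Irf9, Ifnar1, Parp9 and Tbk1, and Tmem173 lies farthest left at -2.08.

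Among other presentation genes, 4 of the 11 tested were lower at 100 nM (36.4%, beside 13.3% of all genes) and 0 higher (beside 10.1%). At an unadjusted p, 5 were lower and 0 higher, and DESeq2 called 3 lower and 0 higher. Psmb10, an immunoproteasome subunit, went from 13.8 and 11.5 RPKM in control to 6.78 and 5.53 RPKM (log2 change -1.04, SE 0.19, adjusted p = 0.0002369 by the edgeR QL test). Psme1 and Psme2, the subunits of the PA28 proteasome activator, fell by 0.71 (adjusted p = 0.0003329) and 0.87 (0.003204), the latter not without 100 nM replicate 1 (0.06561). The fourth, Fcgrt, encodes the class I-like neonatal Fc receptor, which carries antibodies and does not present peptides. It fell by 1.11 (SE 0.34, adjusted p = 0.01757) and was lost without control replicate 1 (0.1143) or 100 nM replicate 2 (0.2083). Psme1 and Psme2 were named after their values were seen. The chaperones that tapasin works with were abundant, with Calr at 462 RPKM in control and 428.5 RPKM at 100 nM (adjusted p = 0.1959), and neither Canx (0.3785) nor Pdia3 (0.6889) passed.

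Tap2, the partner of Tap1 in the transporter, lay under the level filter and was tested in a fit of all 23204 genes with a count. It had 1 and 0 counts in control and 7 and 12 counts at 100 nM, a ratio of 18.7 with an exact 95% counting interval of 2.97 to 777 (adjusted p = 0.00863 by the edgeR QL test). The call ended without control replicate 2 (0.1526) or 100 nM replicate 2 (0.138), and DESeq2 gave no adjusted p. These intervals cover counting error only. The immunoproteasome subunits Psmb8 and Psmb9 were near the floor, with 0 to 3 and 1 to 7 counts per library. Nlrc5, the class I transactivator, was also under the filter, with 4 to 22 counts per library.

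Counts for 11 tested transcription factors that act on class I promoters were the same at an unadjusted p and by DESeq2. At 100 nM, 0 were higher and 1 was lower (9.09%, beside 13.3% of all genes). This was Nfkb2, a non-canonical NF-kappaB subunit, at 9.49 and 10.1 RPKM in control and 5.23 and 4.77 RPKM at 100 nM (log2 change -0.97, SE 0.15, adjusted p = 2.369e-05 by the edgeR QL test). It was named after its values were seen.

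Of 10 tested genes of interferon receptors and JAK-STAT signalling, 2 were higher and 0 lower at 100 nM, the same counts at an unadjusted p and by DESeq2, and 8 did not pass. The list's median log2 change was 0.14, and 10.1% of all genes were called higher. Irf9, a DNA-binding factor of interferon signalling, had 6.26 and 5.81 RPKM in control, 8.83 and 9.66 RPKM at 1 nM, 10.2 and 11.1 RPKM at 10 nM and 13.1 and 12.5 RPKM at 100 nM. Its 100 nM libraries were above all 10 others. The log2 change was 1.09 (SE 0.14, adjusted p = 9.2e-07 by the edgeR QL test), and it also passed at 1 nM (0.62, adjusted p = 0.0173). The 1 nM call was lost by DESeq2 (adjusted p = 0.1077) and when any 1 of the 4 libraries was left out (0.06606 to 0.2219). Ifnar1, a chain of the type I interferon receptor, had 5.95 and 6.80 RPKM in control and 10.8 and 10.98 RPKM at 100 nM (log2 change 0.77, SE 0.097, adjusted p = 1.049e-06). Stat2 did not pass (-0.10, adjusted p = 0.6691).

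Of 48 listed interferon-stimulated genes, 12 were tested. At 100 nM, 5 were lower (41.7%, beside 13.3% of all genes) and 1 higher (8.33%, beside 10.1%). The counts were the same at an unadjusted p, and DESeq2 called 3 lower and 0 higher. Xaf1, which promotes cell death, fell by 1.36 (SE 0.38, adjusted p = 0.009225 by the edgeR QL test) but did not pass without 100 nM replicate 1 (0.1192). Ifi30, a lysosomal thiol reductase of antigen processing, went from 16.8 and 17.1 RPKM to 9.62 and 6.67 RPKM (log2 change -1.06, adjusted p = 0.001087). The other lower genes, named after their values were seen, were Ddx58, which encodes the RNA sensor RIG-I (-0.92, adjusted p = 1.233e-07), Eif2ak2 (-0.44, 0.04299) and Trim25 (-0.20, 0.02601). Parp9 rose by 0.49 (0.04139). Eif2ak2, Trim25 and Parp9 lost their calls when any 1 of the 4 libraries was left out. Bst2, an abundant interferon-stimulated gene, did not pass (0.15, adjusted p = 0.4591). Under the filter, Irgm1 had 23 and 20 counts in control and 5 and 6 at 100 nM (ratio 0.252, 95% counting interval 0.117 to 0.497, adjusted p = 0.001614), Zbp1 had 9 and 23 against 4 and 3 (0.215, 0.0802 to 0.497, adjusted p = 0.006522), and Oasl1 had 2 and 2 against 10 and 12 (5.41, 1.84 to 21.6, adjusted p = 0.04499). DESeq2 called none of these 3 (adjusted p = 0.06373, 0.1289 and 0.2011). The call of Oasl1 ended when any 1 of the 4 libraries was left out (0.1185 to 0.2098), and that of Zbp1 without control replicate 2 (0.3998) or 100 nM replicate 2 (0.09699).

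Among nucleic acid sensing genes, Tmem173, which encodes the adaptor STING, had 4.70 and 3.53 RPKM in control, 1.61 and 1.37 RPKM at 1 nM, 1.51 and 1.88 RPKM at 10 nM and 1.29 and 0.639 RPKM at 100 nM. Its treated libraries at 1, 10 and 100 nM all lay below both controls. The log2 change was -1.46 (SE 0.32, adjusted p = 0.01364 by the edgeR QL test) at 1 nM and -2.08 (SE 0.35, adjusted p = 6.5e-05) at 100 nM. The call at 1 nM was lost by DESeq2 (adjusted p = 0.05869), without control replicate 1 (0.1776) and without either 1 nM replicate (0.09141 and 0.1704). Tbk1, the kinase that STING recruits, rose by 0.39 (adjusted p = 0.01109), a call that ended without control replicate 2 (0.1534) or either 100 nM replicate (0.0562 and 0.07444).

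Of 7 restraints of interferon signalling, 0 passed the edgeR QL test at 100 nM, beside 13.3% lower and 10.1% higher over all genes. At an unadjusted p under 0.05, 1 was lower, and DESeq2 called 0. Pias4 had 43.5 RPKM in control and 39.7 RPKM at 100 nM, and Socs3 29.4 and 30.0 RPKM. None of the 9 listed interferon ligand genes reached the filter, and the highest, Ifnk and Ifne, had 0 to 5 and 0 to 6 counts per library. The other Ifitm genes were as low, with 0 to 8 counts for Ifitm5 and 0 to 4 for Ifitm7.

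Markers of other cell types moved in part with the same doses. Of the 10 haematopoietic markers, 2 were tested and 1, Cd74, the invariant chain of class II, was lower at 100 nM (3.61 to 1.57 RPKM, adjusted p = 0.04433 by the edgeR QL test), a call lost by DESeq2 (0.1198), with a replicate block (0.05075) and without any 1 of the 4 libraries (0.09431 to 0.1862). The summed level of the list was 8.20 and 9.84 RPKM in control and 7.80 and 7.87 RPKM at 100 nM. Primordial germ cell markers, a list relevant to Ifitm1 and Ifitm3, summed to 19.2 and 19.3 RPKM in control and 20.7 and 24.5 RPKM at 100 nM. Of these 6 markers, Tfap2c was higher (0.69, adjusted p = 0.01087), which was lost by DESeq2 (0.05239), without control replicate 2 (0.1137) and without 100 nM replicate 2 (0.1846). Prdm1, under the level filter, was lower, with 30 and 36 counts in control and 9 and 6 at 100 nM (log2 change -2.22, adjusted p = 2.951e-06 in the fit of all genes with a count), and passed by DESeq2 (0.00864) and without any 1 of the 4 libraries. Among trophectoderm markers, Cdx2 (3.10) and Eomes (0.33) were higher at 100 nM and Krt8 (-2.02) was lower. Eomes lost its call in 8 of 16 alternatives. These included DESeq2 (adjusted p = 0.1389), a replicate block, the 1.5-fold limit and leaving out either 100 nM replicate. The list stood at 25.3 and 26.1 RPKM in control and 23.1 and 24.4 RPKM at 100 nM. Primitive endoderm markers summed to 1.84 and 2.29 RPKM in control and 2.53 and 2.87 RPKM at 100 nM. Of these 7 markers Pdgfra was higher, with 3 and 6 counts in control and 28 and 20 at 100 nM (log2 change 2.28, adjusted p = 0.0006785). The fibroblast marker Pdgfrb was lower (-1.19, adjusted p = 0.04009), which was lost by DESeq2 (0.3422), without either control replicate (0.2883 and 0.06964) and without 100 nM replicate 2 (0.6131). The 5 markers of 2-cell-like cells found in the table summed to 2.24 and 3.65 RPKM against 2.26 and 2.64 RPKM. The part of these cell types in the changes of the 9 genes was not tested.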

How the data were processed

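RNA-seq of 12 libraries (SMART-Seq Stranded kit) was analysed from gene counts. According to the labels and the file header, the authors trimmed reads with Trim Galore, aligned them to mm10 with HISAT2 and deposited raw read counts per gene from featureCounts 2.0.1. By the header's settings, strand was not used, and pairs on several genes or places were left out. Counts of 11378 genes (mean RPKM no lower than 1) were tested in R 4.3.3 with edgeR 4.0.16 (quasi-likelihood test, 6 conditions in 1 model, TMM factors over tested genes, Benjamini-Hochberg adjustment, threshold 0.05). RPKM used the same factors. Replicate libraries differed by more than counting noise in each condition. Scripts were tested on simulated data. Alternatives were the likelihood ratio test, DESeq2 1.42.0, other scaling, no filter, other samples in the fit, a replicate block, a fold limit of 1.5 and leaving out libraries. All 9 genes, pathway genes that passed at 100 nM (at most 6 rises and 6 falls, or up to 2 of the highest level where none passed), the nearest tested neighbours and the 3 most correlated genes per gene were named by rule, and others for their role after their values were seen. Genes, lists and rules were chosen with earlier results of these data known. Some results covered by these rules are not reported here.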

Additional observations from a re-analysis of the deposited data

How the results depend on the processing

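Under 16 alternatives, Ifitm3, Ifitm1 and Tapbp kept their calls at 10 and 100 nM, and under 15 at 3 nM. The 3 genes lower at 1 nM became 1 with DESeq2 (Ifitm3), 1 with a 1.5-fold limit (Ifitm1) and 0 to 2 when 1 library was left out. The 5 genes at 10 nM became 3 with DESeq2 (Ifitm3, Ifitm1 and Tapbp) and 3 to 5 when 1 library was left out, and the 4 genes at 100 nM became 3 to 4. Of the pathway genes at 100 nM, the 4 that rose became 2 with the fold limit (Ifnar1 and Irf9) and 2 to 3 when 1 library was left out, and the 12 that fell became 7 to 10. The other alternatives gave 8 (DESeq2) to 17 lower (no filter on low values) and 2 to 5 higher. The estimate of B2m at 100 nM reversed, with a range of -0.32 to 0.077 when 1 library was left out and the upper end without dTAG13 100 nM replicate 1. The cause of these changes was not tested. With a replicate block, 4 genes were lower at 100 nM and no count of the 9 genes changed. Over all tested genes, the differences between replicates 1 and 2 correlated between -0.0948 and 0.0927 over 15 pairs of conditions. Counting noise enters these differences, so the values cannot show whether same-numbered libraries were paired. Over all genes, 1151 were higher and 1511 lower at 100 nM, with 745 and 1052 by DESeq2, 718 to 773 and 1045 to 1122 when 1 library was left out, and 802 and 2174 with TMM factors over all genes. Genes with few counts, H2-D1 and Tap1 above all, are limited by depth.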
